A study of Mus musculus with 6 samples.

Results

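The 39 mouse Hox genes were followed across lung tumours of a small cell lung cancer model with and without knockout of Keap1. Members were all genes of the deposited count table whose symbol has the form Hox, a cluster letter from a to d and a number, which gave 39 of 56980 gene identifiers: 11 in the HOXA cluster on chromosome 6, 10 in HOXB on chromosome 11, 9 in HOXC on chromosome 15 and 9 in HOXD on chromosome 2. Of these, 12 met the minimum that edgeR's filter sets in at least 3 libraries and entered its test, namely 4 HOXA, 7 HOXB and 1 HOXC gene. The other 27 are given by raw reads, and 5 of them had no read in any library.

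The series holds messenger RNA libraries from 3 Keap1 knockout and 3 control samples of lung tumours labelled QKO, taken about 4 months after virus was given. The sample titles name QKO for both groups, whereas the count columns are headed QKO for controls and KP for knockouts. Neither term is spelled out, so whether the groups share a background cannot be told from the labels. Neither the virus, the way Keap1 was inactivated nor the animal behind each sample is stated. The p-values below therefore reflect only the spread among these libraries, which may not come from separate animals. The study asked how Keap1, the adaptor that marks the stress response factor NRF2 for degradation, acts in this cancer. Keap1 RNA averaged 80.2 ± 12.8 CPM in knockouts and 70.5 ± 10.4 CPM in controls (SD, n = 3 each), log2 fold change 0.18 ± 0.20 (SE), adjusted p = 0.564. Unless another tool is named, adjusted p values are those of edgeR's quasi-likelihood test, Benjamini-Hochberg adjusted across every tested gene, and a gene passed at 0.05. These are counts over the whole gene, so they do not check the knockout. CPM are reads scaled to the size of each library.

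Hox genes encode homeodomain transcription factors that give cells along the body axis their positional identity. They lie in clusters in which gene order follows paralog number: low numbers act early and towards the head, high numbers late and towards the tail. HOX proteins bind DNA together with PBX and MEIS partner proteins, Polycomb complexes keep the clusters silent, and MLL complexes keep active members on. In the mouse lung the mesenchyme keeps several HOXA and HOXB genes active, and Hoxa5 is required for normal lung and airway development.

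The promoters of Hoxb8, Hoxb4 and Hoxa5 are shown because these genes led, per exon length, in 1 or more of the libraries. They stand for a HOXB gene that fell, a HOXB gene with a large fold change that did not pass, and the HOXA gene that led in every knockout. The sequences are the 250 bases before the annotated start, from RefSeq on GRCm38.p6, read 5′ to 3′ on the strand of the gene. Capitals mark matches to the motifs searched.
Hoxb8, chr11:96281655-96281904, plus strand: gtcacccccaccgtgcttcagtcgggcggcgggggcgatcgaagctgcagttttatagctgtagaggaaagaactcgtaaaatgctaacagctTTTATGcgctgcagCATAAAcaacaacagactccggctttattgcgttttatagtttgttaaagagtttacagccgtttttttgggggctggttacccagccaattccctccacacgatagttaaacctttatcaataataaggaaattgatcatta
Hoxb4, chr11:96318017-96318266, plus strand: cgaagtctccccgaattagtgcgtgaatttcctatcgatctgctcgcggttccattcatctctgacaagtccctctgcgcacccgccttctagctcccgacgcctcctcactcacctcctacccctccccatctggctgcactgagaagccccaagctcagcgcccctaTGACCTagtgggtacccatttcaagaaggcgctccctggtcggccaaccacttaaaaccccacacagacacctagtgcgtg
Hoxa5, chr6:52204588-52204837, minus strand: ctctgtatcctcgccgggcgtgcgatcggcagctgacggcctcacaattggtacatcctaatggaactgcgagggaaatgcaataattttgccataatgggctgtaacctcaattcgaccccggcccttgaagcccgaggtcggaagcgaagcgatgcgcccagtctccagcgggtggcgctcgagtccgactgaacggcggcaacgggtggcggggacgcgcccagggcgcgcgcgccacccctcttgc

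The motifs, searched on both strands and chosen with the expression results known, were the NRF2 and small MAF core TGACNNNGC, the CDX core TTTATG, the HOX-PBX composite TGATTNAT, the MEIS core TGACAG and the retinoic acid receptor half-site AGGTCA. The Hoxb8 window held the CDX core on each strand, starting 157 and 143 bases before the start, the Hoxb4 window held a retinoic acid receptor half-site starting 81 bases before it, and the Hoxa5 window matched none. The CDX core stood in 5 of 24 Hox windows and in 10.8% of the 32851 promoter windows of the same length, and the half-site in 6 of 24 Hox windows and in 14% of all. The NRF2 and small MAF core stood in 1 of 24 Hox windows, that of Hoxa6, and in 10.2% of all windows. The HOX-PBX composite was in the windows of Hoxa2 and Hoxd11 and in 2.82% of all, and the MEIS core in those of Hoxa2 and Hoxa3 and in 15.9% of all. The table covers 22 of the 39 members, and has no entry for Hoxb2, Hoxb3, Hoxb5, Hoxb6, Hoxb7 or Hoxb9.

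The libraries differed in the cells or states they held, and the part of this in the Hox values below was not tested. Total reads ran from 21801647 to 23759892 in knockouts and from 18731515 to 20065069 in controls. The neuroendocrine transcription factors that mark the labelled tumour type were near absent from the knockouts: Insm1 had 2, 0 and 0 reads in knockouts 1 to 3 and 354, 28 and 12495 reads in controls 1 to 3, and Neurod1 had none in knockouts and 3, 4 and 1923 reads in controls. The summed level of the 6 neuroendocrine markers was 20.9 to 117 CPM in knockouts, where most of it was Calca, and 74.9, 5.004 and 4218 CPM in controls 1 to 3. The 9 fibroblast and mesenchyme markers summed to 421 to 1174 CPM in knockouts and to 519, 34461 and 5129 CPM in controls 1 to 3, and the 5 basal and squamous markers to 1.67 to 65.4 CPM in knockouts and to 6609, 8.87 and 2.69 CPM in controls 1 to 3. In bulk libraries fewer cells of a type and less RNA per cell cannot be told apart.

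Hox RNA was scarcer in every Keap1 knockout tumour than in every control tumour, and most of the difference lay in HOXB. All 39 genes together had 305, 320 and 228 reads in knockouts 1 to 3 and 771, 2017 and 2923 reads in controls 1 to 3. As summed CPM this was 13.0 ± 2.56 in knockouts and 94.9 ± 53.4 in controls (SD, n = 3 each). HOXB supplied 101, 79 and 42 of these reads in knockouts 1 to 3 and 560, 1066 and 2547 in controls 1 to 3. HOXA supplied 191, 175 and 149 reads in knockouts and 133, 893 and 295 in controls, which was 6.55 to 8.91 CPM in knockouts and 6.75 to 44.2 CPM in controls, and these ranges overlap. HOXA therefore held 54.7% to 65.4% of all Hox reads in knockouts and 10.1% to 44.3% in controls, and HOXB 18.4% to 33.1% in knockouts and 52.9% to 87.1% in controls. These sums weight long and abundant genes most and were not tested.

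**Figure D1:**
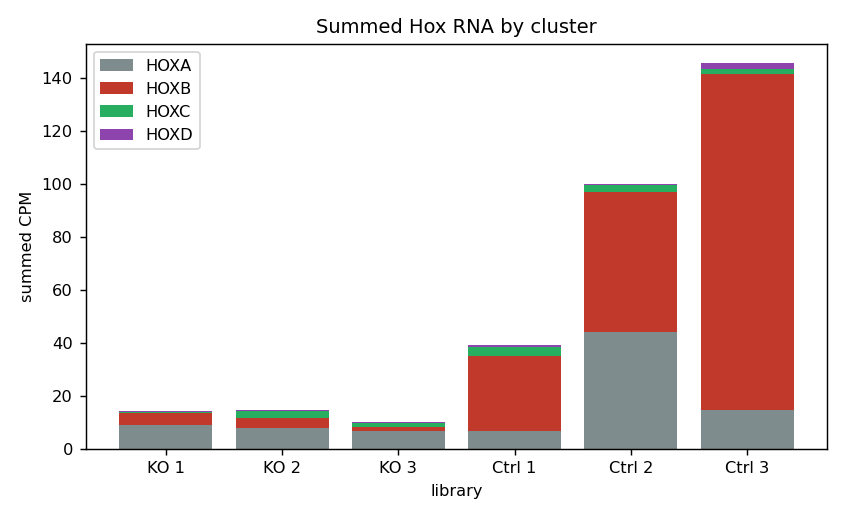
Bars give the summed CPM of the Hox genes of each cluster in each library, knockouts on the left and controls on the right. Totals run from 10.02 to 14.7 CPM in knockouts and from 39.1 to 146 CPM in controls, and the HOXB segment is the largest in all 3 controls and smaller than the HOXA segment in all 3 knockouts.

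Of the 12 tested Hox genes 3 fell in the knockout and none rose. The 3 were Hoxb3, Hoxb7 and Hoxb8, all from HOXB, at an adjusted p below 0.05 by edgeR's quasi-likelihood test, where 1.89% of all 17901 tested genes were called lower and 2.42% higher. No Hox gene was higher at an unadjusted p below 0.05 by edgeR with all 6 samples and genotype only, or by limma voom. EdgeR had 1 such gene with the sample number as a replicate block, 1 without control 2 and 1 without knockout 1. DESeq2 called none higher and had 1, Hoxc4, at an unadjusted p below 0.05. At an unadjusted p below 0.05 edgeR had 8 of the 12 lower, against 16.9% of all tested genes lower and 30.7% in either direction. In 8 of the 12 every knockout library lay below every control library, against 19.1% of all tested genes, and in none above, against 21.5%. The filter keeps a gene that is high in either group, so these 12 are not a sample of all members. Hoxb3, Hoxb6, Hoxb7 and Hoxb8 reached the filter's minimum in all 3 controls and in no knockout. For these genes the filter itself fixed the separation of the groups, so the count of 8 is no support for a difference. The median log2 fold change of the 12 was -3.24, against -0.08 over all tested genes. The same filter bears on this median, on the 3 calls and on the count at an unadjusted p below 0.05. Their comparison with all tested genes is therefore description only. By limma voom 2 fell, Hoxb3 and Hoxb7, where it called 2.25% of all genes lower. By DESeq2, which tested 22 members, 9 fell, where it called 11.2% of all genes lower.

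The calls rested on few libraries. Without controls 1, 2 and 3 in turn edgeR called 4, 0 and 5 Hox genes lower, where it called 2%, 0.642% and 8.8% of all genes lower, and without knockout 1, 2 or 3 it called 0 in each case, where 2, 0 and 0 genes were called among all tested. In the fits with a library left out, the log2 fold changes of Hoxb3, Hoxb7 and Hoxb8 stayed between -6.84 and -4.63.

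**Figure D2:**
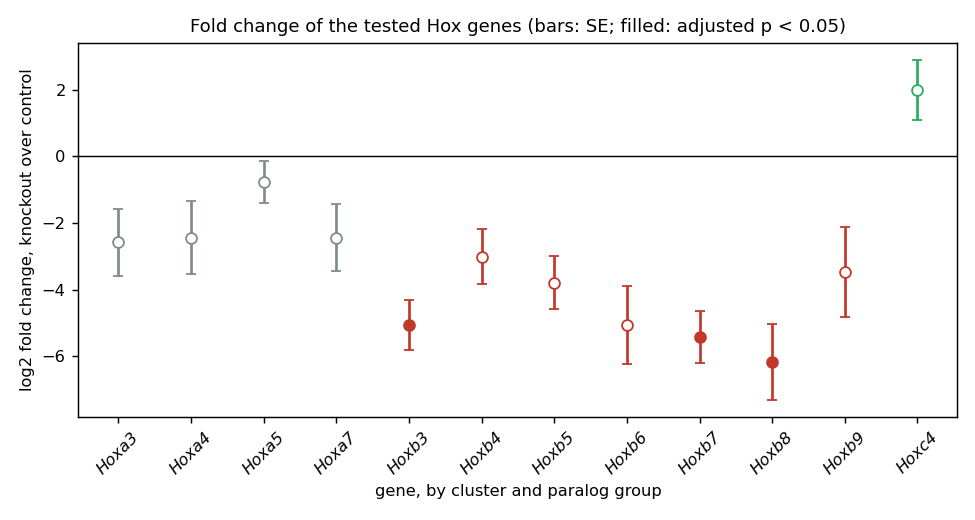
Points are the log2 fold change of each tested Hox gene, knockout over control, by cluster and paralog group, with bars for the SE. Filled points mark Hoxb3, Hoxb7 and Hoxb8, which passed; all 7 HOXB genes lie between -6.16 and -3.01 and Hoxc4 is the 1 gene above 0.

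Within HOXB the genes from paralog group 2 to 9 shared 1 direction. Hoxb8, a posterior member used in limb and blood cell patterning (ENSMUSG00000056648), had 4, 10 and 3 reads in knockouts 1 to 3 and 200, 89 and 848 reads in controls 1 to 3. This was 0.187, 0.458 and 0.132 CPM in knockouts and 10.2, 4.41 and 42.2 CPM in controls. Control 3 was highest and control 2 lowest of the controls, and the lowest control stood well above the highest knockout. Hoxb8 fell by 6.16 on the log2 scale (SE 1.14, edgeR adjusted p = 0.0459). The call ended without control 1 (edgeR adjusted p = 0.0564), without control 2 (0.0528) and without knockout 1, 2 or 3 (0.184, 0.222 and 0.226).

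Hoxb7, a trunk gene (ENSMUSG00000038721), stood at 0.0933, 0.0916 and 0.176 CPM in knockouts 1 to 3 and at 2.39, 3.86 and 9.96 CPM in controls 1 to 3. It fell by 5.42 on the log2 scale (SE 0.78, edgeR adjusted p = 0.0341). Hoxb3, a hindbrain and pharyngeal gene (ENSMUSG00000048763), stood at 0.0933, 0.137 and 0.264 CPM in knockouts and at 2.18, 7.38 and 7.62 CPM in controls. It fell by 5.06 on the log2 scale (SE 0.75, edgeR adjusted p = 0.0359). Controls 2 and 3 were alike for Hoxb3, whereas control 3 led for Hoxb7. Both calls ended without control 2 (edgeR adjusted p = 0.0559 for Hoxb7 and 0.0608 for Hoxb3) and without any 1 knockout (0.155 to 0.220). In the GENCODE M21 annotation of GRCm38, which is not the authors' build, 52.9% of the exon length of Hoxb3 is overlapped by the antisense gene Hoxb3os. Whether the counting used strand is not stated here, and reads of the pair may not be told apart. Hoxb3os was counted at 3, 3 and 1 reads in knockouts and at 2, 57 and 58 reads in controls.

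Hoxb4, Hoxb5, Hoxb6 and Hoxb9 had large negative fold changes without passing. Hoxb4, known for expanding blood stem cells when overexpressed, had 53, 37 and 19 reads in knockouts 1 to 3 and 65, 451 and 295 reads in controls 1 to 3. Its levels were 1.67 ± 0.818 CPM in knockouts and 13.4 ± 9.58 CPM in controls (SD, n = 3 each). The difference of -3.01 ± 0.82 (log2, SE) had an edgeR adjusted p = 0.0811. The highest knockout, at 2.47 CPM, lay close to control 1, at 3.30 CPM. Hoxb5, which is active in the mesenchyme of the branching lung, had 17, 18 and 7 reads in knockouts and 63, 148 and 328 reads in controls (log2 fold change -3.79 ± 0.79, edgeR adjusted p = 0.0545). Hoxb6, a trunk and limb gene, had 10, 9 and 1 reads in knockouts and 75, 93 and 456 reads in controls (log2 fold change -5.05 ± 1.16, edgeR adjusted p = 0.0628). Hoxb9, a thoracic gene, had 13, 0 and 0 reads in knockouts and 60, 34 and 43 reads in controls (log2 fold change -3.48 ± 1.36, edgeR adjusted p = 0.150). Without knockout 1, where Hoxb9 has no knockout read, the fitted log2 fold change was -8.57 and is no bound (edgeR adjusted p = 0.128). For each of these 4 genes all knockouts lay below all controls, and for Hoxb9 the 3 controls were close together while its reads in the knockouts all came from knockout 1.

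**Figure D3:**
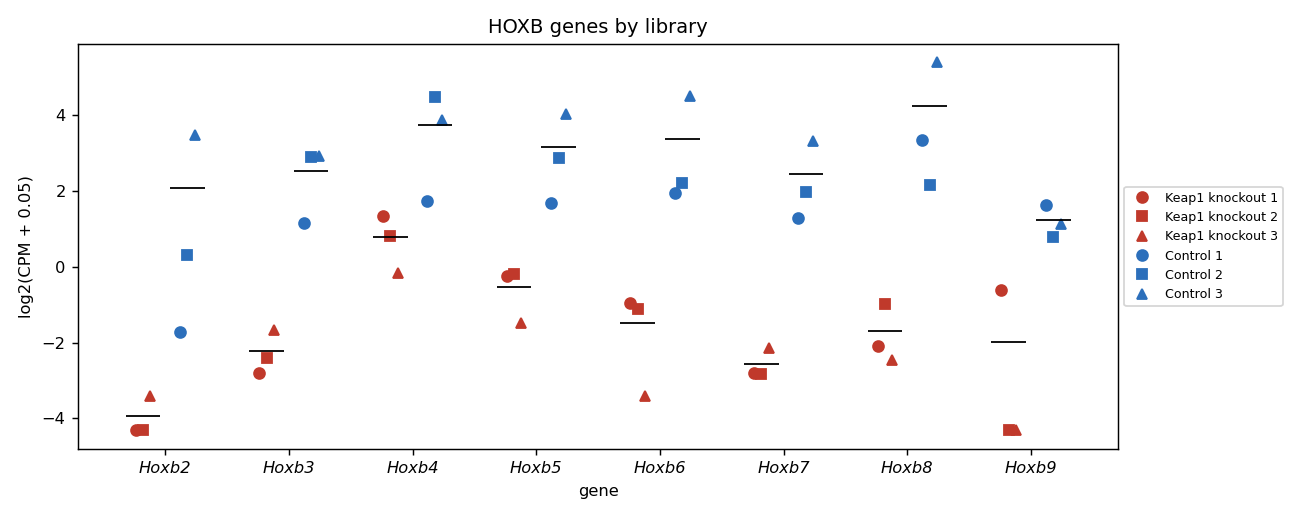
Points are the level of 8 HOXB genes in each library as log2(CPM + 0.05), knockouts left and controls right within a gene, and lines mark the mean CPM of the group. Every knockout point lies below every control point of its gene; Hoxb4 comes closest to touching, with 2.47 CPM in knockout 1 and 3.30 CPM in control 1.

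Hoxb1, Hoxb2 and Hoxb13 did not pass the filter of edgeR. Hoxb2, which acts in hindbrain segments, had 0, 0 and 1 reads in knockouts 1 to 3 and 5, 24 and 223 reads in controls 1 to 3. The ratio of pooled reads to pooled scaled totals was 278 for controls over knockouts, with a 95% counting interval of 49.4 to 11004 that covers counting error only, and control 3 held 88.5% of the control reads. Hoxb2 was called lower by DESeq2 (log2 fold change of -8.01, adjusted p of 0.000283), but not by edgeR without the filter (adjusted p of 0.105). Hoxb1, the most anterior member, had 1 read in all, in knockout 3, and Hoxb13, the prostate and tail gene, had none in knockouts and 2, 0 and 1 reads in controls. At this depth Hoxb1 and Hoxb13 were near the detection limit in both groups.

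The controls differed in which HOXB gene led. Per kilobase of exon, Hoxb8 stood at 0.0708, 0.174 and 0.05004 CPM per kilobase in knockouts 1 to 3 and at 3.85, 1.67 and 16.0 in controls 1 to 3. On the same scale Hoxb4 stood at 0.963, 0.660 and 0.325 in knockouts and at 1.29, 8.71 and 5.72 in controls. The ratio of Hoxb8 to Hoxb4 was thus 0.0735, 0.263 and 0.154 in the knockouts, 3.00 and 2.80 in controls 1 and 3, and 0.192 in control 2. In the balance of these 2 genes control 2 lay inside the range of the knockouts, although it held more of both. Control 2 also had the largest fibroblast and mesenchyme marker sum, most of it Col1a1 and Col1a2, while Col3a1 and Dcn were highest in control 3. A link between that sum and this balance was not tested. Exon lengths were taken from GENCODE M21.

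**Figure D4:**
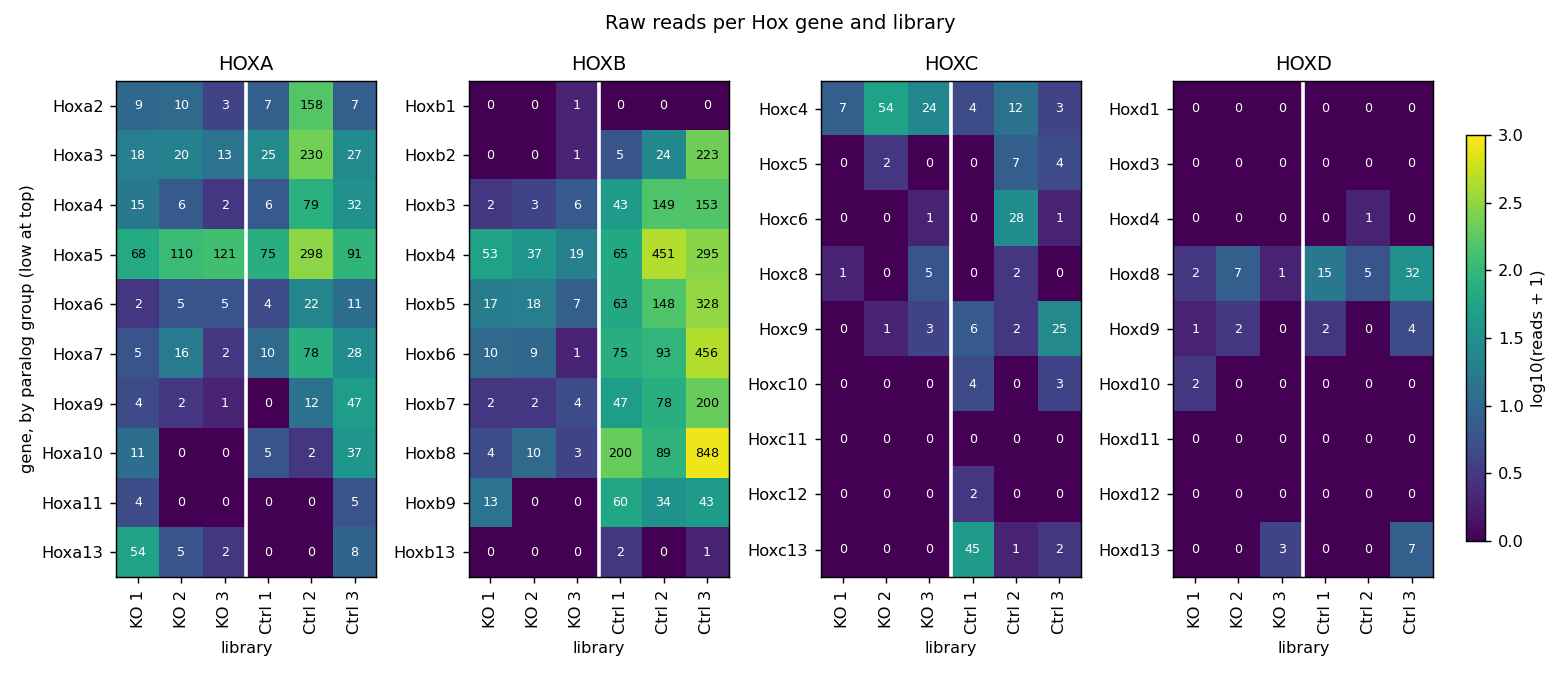
Cells give the raw reads of the Hox genes shown in each library, by cluster and paralog group, coloured by log10(reads + 1). The block from Hoxb2 to Hoxb9 holds 5 to 848 reads per cell in controls and 0 to 53 in knockouts, Hoxa2 to Hoxa7 peak in control 2, and HOXC and HOXD are sparse everywhere.

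In HOXA no gene changed by edgeR or limma voom, and the levels of Hoxa5 overlapped between the groups. By edgeR 1 of 4 tested genes, Hoxa3, had an unadjusted p below 0.05, and DESeq2 called that gene alone among the 9 HOXA genes it tested. Hoxa5 (ENSMUSG00000038253) had 68, 110 and 121 reads in knockouts 1 to 3 and 75, 298 and 91 reads in controls 1 to 3. Its levels were 3.17, 5.04 and 5.32 CPM in knockouts and 3.81, 14.8 and 4.53 CPM in controls, which overlap, with control 2 alone standing apart. The difference was -0.77 ± 0.63 (log2, SE; edgeR adjusted p = 0.436), and 0.14 without control 2 (edgeR adjusted p = 0.857). Per exon length Hoxa5 was the highest HOXA gene in all 6 libraries, and the highest of all 39 Hox genes in each knockout.

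The anterior HOXA genes were led by control 2. Hoxa3, needed for thymus and parathyroid formation, had 18, 20 and 13 reads in knockouts 1 to 3 and 25, 230 and 27 reads in controls 1 to 3 (log2 fold change -2.58 ± 1.00, edgeR adjusted p = 0.149). Every knockout lay below every control, and without control 2 the log2 fold change was -0.73 (edgeR adjusted p = 0.326). Hoxa4 had 15, 6 and 2 reads in knockouts and 6, 79 and 32 reads in controls, and Hoxa7 5, 16 and 2 reads in knockouts and 10, 78 and 28 reads in controls. Their log2 fold changes were -2.44 ± 1.09 and -2.44 ± 1.02 (SE), with edgeR adjusted p = 0.188 and 0.168, and their groups overlapped. Without control 2 these were -1.38 and -1.40, without knockout 1 Hoxa4 was at -3.36, and without knockout 2 Hoxa7 was at -3.53. Hoxa2, which patterns the second pharyngeal arch and was not tested, had 9, 10 and 3 reads in knockouts and 7, 158 and 7 reads in controls, so that control 2 alone exceeded the knockouts. Of the 9 HOXA genes with at least 10 control reads, 7 had most in control 2 and 2, Hoxa9 and Hoxa10, in control 3. Of the 8 such HOXB genes, 6 had most in control 3.

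The posterior HOXA genes had few reads, with 1 exception in a knockout. Hoxa13, the gene of the distal limb and hindgut, had 54, 5 and 2 reads in knockouts 1 to 3 and 0, 0 and 8 reads in controls 1 to 3. Evx1, the homeobox gene that follows Hoxa13 at the end of the cluster, had 24, 0 and 0 reads in knockouts and 0, 2 and 0 reads in controls. Knockout 1 thus held most reads of both neighbours, as well as 11 and 4 reads of Hoxa10 and Hoxa11 where the other knockouts had none. Hoxa9 had 4, 2 and 1 reads in knockouts and 0, 12 and 47 in controls, Hoxa10 11, 0 and 0 in knockouts and 5, 2 and 37 in controls, and Hoxa11 4, 0 and 0 in knockouts and 0, 0 and 5 in controls. Hoxa6, in the middle of the cluster, had 2, 5 and 5 reads in knockouts and 4, 22 and 11 in controls.

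HOXC and HOXD were almost silent in both groups. All 9 HOXC genes together had 8, 57 and 33 reads in knockouts 1 to 3 and 61, 52 and 38 in controls 1 to 3, and all 9 HOXD genes 5, 9 and 4 in knockouts and 17, 6 and 43 in controls. Hoxc4 was the 1 tested member with a positive fold change, with 7, 54 and 24 reads in knockouts and 4, 12 and 3 reads in controls. The difference was 2.00 ± 0.90 (log2, SE; edgeR adjusted p = 0.191), and its groups overlapped. It was 1.12 without knockout 2 and 2.85 without control 2. Hoxc13, which drives hair and nail keratin genes, had no read in the knockouts and 45, 1 and 2 reads in controls 1 to 3. It was at least 17.6-fold lower in knockouts against a floor of 3 reads over the group, and 93.8% of its reads came from control 1, the library with the most basal and squamous RNA. The part of squamous cells in this value was not tested. DESeq2 called it lower (adjusted p of 0.0240), and edgeR without the filter did not (0.229).

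Of the other HOXC genes, Hoxc6 had 0, 0 and 1 reads in knockouts and 0, 28 and 1 in controls, and Hoxc9 had 0, 1 and 3 reads in knockouts and 6, 2 and 25 in controls. Each of these was thus led by a different control, Hoxc6 by control 2 and Hoxc9 by control 3. Hoxc5, Hoxc8, Hoxc10 and Hoxc12 had at most 13 reads over all 6 libraries and Hoxc11 none. In HOXD, Hoxd8, an early trunk gene, had 2, 7 and 1 reads in knockouts and 15, 5 and 32 reads in controls. Hoxd9 and Hoxd13 had 9 and 10 reads in all, Hoxd4 and Hoxd10 1 and 2, and Hoxd1, Hoxd3, Hoxd11 and Hoxd12 none.

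Of the 39 members, 22 are listed in the authors' deposited table. By the authors' deposited table, Hoxa3, Hoxb2 to Hoxb8 and Hoxc13 were lower and 0 members higher at an adjusted p below 0.05, which is 9 members, where 10.7% of its 22441 genes were lower and 7.1% higher. The authors' deposited table gives log2 fold changes of -6.20 for Hoxb8, -5.49 for Hoxb7 and -5.12 for Hoxb3.

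The sums of the cell type marker lists varied among the 3 controls. The 6 lung epithelial markers summed to 3662, 7101 and 7593 CPM in knockouts 1 to 3 and to 3051, 3547 and 1065 CPM in controls 1 to 3, with every knockout above every control. In each knockout the largest part was Scgb1a1, a club cell gene, with 1574, 3501 and 5331 CPM in knockouts and 1017, 1355 and 119 CPM in controls. Foxj1, of ciliated cells, was lower in every knockout, and the groups of the other 4 overlapped. HOXB RNA summed to 1.85 to 4.71 CPM in the knockouts and to 28.4, 52.8 and 126.8 CPM in controls 1 to 3. The fibroblast and mesenchyme sum was 519 CPM in control 1, 34461 CPM in control 2 and 5129 CPM in control 3, and 421 to 1174 CPM in the knockouts. Most of the sum in control 2 was Col1a1 and Col1a2, at 20424 and 12074 CPM. Col3a1, at 998 CPM in control 2 and 2291 CPM in control 3, and Dcn, at 57.1 and 238 CPM, were highest in control 3. The remaining markers of this list were highest in control 2. Endothelial markers summed to 111 to 191 CPM in knockouts and 86.9 to 306 CPM in controls, and leukocyte markers to 71.6 to 93.8 CPM in knockouts and 70.9 to 425 CPM in controls. Negative log2 fold changes were found for 9 of 9 tested fibroblast and mesenchyme, 5 of 6 endothelial, 5 of 6 leukocyte, 5 of 5 basal and squamous, 5 of 5 neuroendocrine and 2 of 6 lung epithelial markers. EdgeR called 0 markers, with 5, 0, 3, 1, 4 and 0 at an unadjusted p below 0.05 in this order, and limma voom called 0. DESeq2 called 5 of 9 fibroblast, 2 of 6 leukocyte and 1 of 1 neuroendocrine markers lower, where it called 11.2% of all genes lower. It gave an adjusted p to only 1 of the neuroendocrine and 1 of the basal and squamous markers, and did not call the latter. Krt6a was at 0 in knockout 1, Insm1 in knockouts 2 and 3 and Chga in knockout 3. The part of these cell types in the HOXB difference was not tested.

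Meis1 and Meis2, partners of HOX proteins, fell in the knockouts, while Pbx2, Pbx3 and Pbx4 did not pass. Of 10 tested partner and related genes edgeR and limma voom each called 2 lower and 0 higher. Over all genes edgeR called 1.89% lower and 2.42% higher, and limma voom called 2.25% lower. DESeq2 called 3 of the 10 lower and 1 higher. Over all genes it called 11.2% lower, and 4122 of 22105 in either direction, which also holds for its counts in the lists below. Every knockout lay above every control for Tgif1, a related homeobox gene (log2 fold change 1.41 ± 0.44, edgeR adjusted p = 0.101). Meis1 (ENSMUSG00000020160), a cofactor that binds DNA beside HOX and PBX, stood at 2.70, 2.93 and 1.76 CPM in knockouts 1 to 3 and at 10.8, 20.3 and 14.9 CPM in controls 1 to 3. It fell by 2.64 on the log2 scale (SE 0.42, edgeR adjusted p = 0.0390). Meis2 (ENSMUSG00000027210), its paralog, stood at 2.10, 1.83 and 1.32 CPM in knockouts and at 7.77, 7.83 and 19.5 CPM in controls, and fell by 2.74 on that scale (SE 0.54, edgeR adjusted p = 0.0486). The controls averaged 15.3 ± 4.77 CPM for Meis1 and 11.7 ± 6.74 CPM for Meis2 (SD, n = 3). Both calls ended without control 2 (edgeR adjusted p = 0.0650 for Meis1 and 0.0660 for Meis2) and without any 1 knockout (0.158 to 0.236), and that of Meis2 also without control 1 (0.0555) and without the filter (0.0702).

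Pbx2 and Pbx3 had log2 fold changes of 0.11 ± 0.26 and 0.26 ± 0.21 (SE), and Meis3 one of -1.79 ± 0.83 with overlapping groups. Pbx4 stood at 26.2, 25.8 and 28.0 CPM in knockouts and at 4.47, 4.46 and 27.5 CPM in controls, so that control 3 matched the knockouts.

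**Figure D5:**
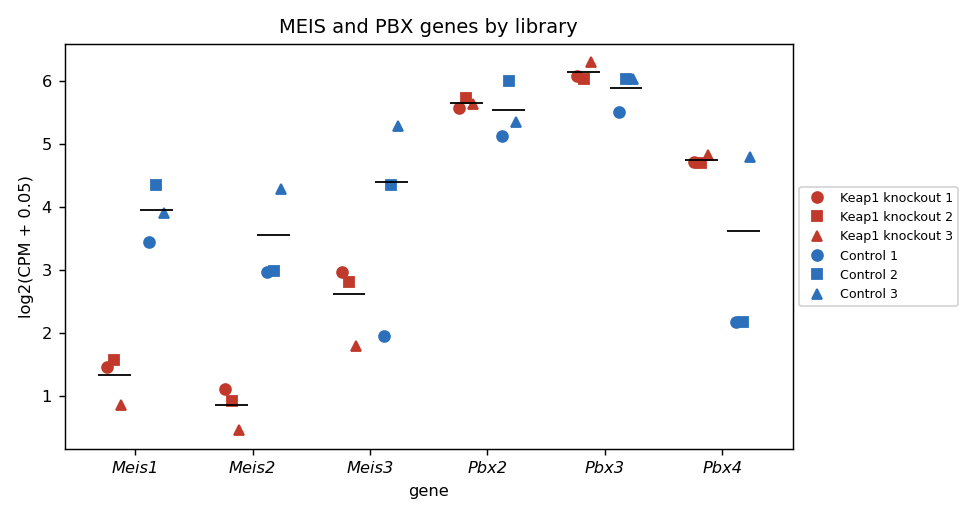
Points are the level of 3 MEIS and 3 PBX genes in each library as log2(CPM + 0.05), knockouts left and controls right within a gene, and lines mark the mean CPM of the group. Meis1 and Meis2 lie at 1.32 to 2.93 CPM in knockouts and at 7.77 to 20.3 CPM in controls, and the groups of Meis3, Pbx2, Pbx3 and Pbx4 overlap.

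Among the chromatin regulators of the clusters 2 genes fell and none rose by edgeR. Of 13 tested PRC2 genes 1 fell, Lcor, whose locus also makes a PRC2 accessory protein, by 1.36 on the log2 scale (SE 0.24, edgeR adjusted p = 0.0416). Of 18 tested MLL, DOT1L and demethylase genes 1 fell, Aff4, a scaffold of the super elongation complex, with 142 ± 16.4 CPM in knockouts and 293 ± 36.8 CPM in controls (SD, n = 3 each; edgeR adjusted p = 0.0429). Both calls ended without control 2 (0.0720 for Lcor and 0.0661 for Aff4) and without any 1 knockout, and that of Aff4 also without control 1 (0.0550). Without the filter neither passed (0.0820 for Lcor and 0.0595 for Aff4). DESeq2 called 1 PRC2 gene higher and 1 lower, and 3 of the MLL group lower. Of 20 tested PRC1 genes edgeR and limma voom called 0, with 8 at an unadjusted p below 0.05 by each, and DESeq2 called 2 higher and 2 lower. The PRC1 genes with the smallest p were Cbx7, with a log2 fold change of 0.65 ± 0.17 (edgeR adjusted p = 0.0771), and Pcgf6, with 0.84 ± 0.23 (0.0795). The median log2 fold change was -0.12 over PRC2, -0.28 over PRC1 and -0.11 over the MLL group, against -0.08 over all tested genes. EdgeR called 4.31% of all tested genes in either direction.

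Retinoic acid, made by ALDH1A enzymes, induces anterior HOX genes in embryos. Of 14 genes of this pathway that edgeR tested 1 rose, Aldh1a1, a retinaldehyde dehydrogenase, with 678, 1270 and 1290 CPM in knockouts 1 to 3 and 111, 97.4 and 28.7 CPM in controls 1 to 3. It rose by 3.77 on the log2 scale (SE 0.61, edgeR adjusted p = 0.0391), and the call ended without control 1 (0.0523), control 2 (0.0693) or any 1 knockout. Among CDX and ParaHox genes, which are related homeobox factors outside the clusters, edgeR tested 0, and DESeq2 tested 2, both at an unadjusted p below 0.05, and called 1 lower. Of 17 retinoic acid genes DESeq2 called 1 higher and 4 lower, and of 14 limma voom called 1 higher and 1 lower. Cdx2, an activator of posterior HOX genes, had 0 reads in each knockout and 13, 26 and 1 reads in controls 1 to 3.

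No gene next to the clusters passed by edgeR. Of 11 tested flanking genes edgeR called 0, with 1, Hibadh, at an unadjusted p below 0.05, and DESeq2 and limma voom each called 1 higher and 0 lower. Hibadh, an enzyme of valine breakdown beyond the end of HOXA, stood at 157 ± 21.9 CPM in knockouts and 50.8 ± 23.5 CPM in controls (SD, n = 3 each; edgeR adjusted p = 0.0639). On the flanks of HOXB, Skap1 had a log2 fold change of -1.44 ± 0.61 (edgeR adjusted p = 0.171), Ttll6 one of -0.20 ± 0.45 and Snx11 one of -0.34 ± 0.24. Every knockout lay below every control for Snx11, while the groups of Skap1 and Ttll6 overlapped. Of 10 long noncoding RNAs of the clusters DESeq2 tested 4 and called 2 lower, and edgeR tested 1, Hoxaas2, with 6, 1 and 5 reads in knockouts and 10, 139 and 12 reads in controls (edgeR adjusted p = 0.122). It was led by control 2, like Hoxa2 and Hoxa3.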

How the data were processed

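The authors deposited raw read counts for each Ensembl gene, as whole numbers without normalization. Reads were aligned with STAR to mm39, per the submitters' processing notes. No counting tool, annotation or strand setting is named there. The authors' deposited table of their DESeq2 comparison gives for each symbol a mean normalized count (a signal), a log2 fold change and its standard error, a test score, and a raw and an adjusted p-value. Exon lengths and overlaps came from GENCODE M21 and promoters from RefSeq, both on GRCm38, without use of their coordinates beside mm39. A table of gene names paired 52073 of 56980 identifiers with a symbol.

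Genes were filtered with filterByExpr, scaled by TMM and compared by the quasi-likelihood test of edgeR (version 4.0.16, R 4.3.3, robust fit, two-sided, genotype as the only term, all 6 samples), with Benjamini-Hochberg adjustment over 17901 genes and a threshold of 0.05. The SE is the log2 fold change divided by the root of the F statistic. The step was tested on simulated data. Floors were 3 reads over a group, and intervals were exact at 95%. Other settings tried were upper-quartile and RLE scaling, all genes kept, 1 CPM in 3 samples, DESeq2 1.42.0, limma voom (3.58.1), each sample left out, the sample number as a block and an adjusted p below 0.1.

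Values are given in every library for Hox genes past the threshold and for tested members of at least 1 CPM in either group, up to 6 per cluster, the others by raw reads; lists name up to 4 members past the threshold or the 2 with the smallest p. This rule does not cover the following, which were picked with their values in view: among the Hox genes Hoxb9, and outside them Hoxb3os, Evx1, Cdx2, Meis3, Pbx2, Pbx3, Pbx4, Snx11, Ttll6, Tgif1, Scgb1a1, Foxj1, Krt6a, Chga, Insm1, Neurod1 and Calca. Some genes of these lists and of HOXA are not reported here. The members and lists were chosen with earlier results of these data known.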

Additional observations from a re-analysis of the deposited data

How the results depend on the processing

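The number of genes called depended on the setting more than the direction did. Over all genes, 771 were called by edgeR, 465 without the filter, 4122 by DESeq2, 3117 at an adjusted p below 0.1, and 0 to 3209 with 1 library left out. Hox genes called lower numbered 3, against 9 by DESeq2, 6 at an adjusted p below 0.1 and 0 to 5 with 1 library left out, and members of the companion lists 5, against 2 without the filter, 22 by DESeq2, 16 at an adjusted p below 0.1 and 0 to 18 with 1 library left out. RLE and upper-quartile scaling moved none of these counts by over 1.5 times.

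With the sample number as a replicate block edgeR called 0 genes, with 4026 at an unadjusted p below 0.05, hence 0 Hox genes and 0 companion genes; the log2 fold changes were -5.01 for Hoxb3, -5.28 for Hoxb7 and -5.64 for Hoxb8. The deviations of same-numbered samples correlated at 0.0168, -0.00242 and 0.0430, so the numbers were not taken to pair the samples; numbers 1 and 3 correlated best with their own number and number 2 did not.

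By DESeq2 Hoxa3 (-2.60), Hoxb4 (-3.02), Hoxb5 (-3.81) and Hoxb6 (-5.08) passed, as did Hoxb5 when genes needed 1 CPM in 3 samples (-3.82), and by limma voom Hoxb8 did not (-5.64). With 1 library left out, log2 fold changes ran from -5.54 to -4.76 for Hoxb3, -3.46 to -2.40 for Hoxb4, -4.19 to -3.03 for Hoxb5, -5.45 to -3.75 for Hoxb6, -5.77 to -4.63 for Hoxb7 and -6.84 to -4.78 for Hoxb8. Hoxb9 ran from -8.57 to -2.87 and Hoxa5 from -1.09 to 0.14, positive only without control 2. The causes were not tested. Among the 27 members outside the test of edgeR 12 had more than 10 reads, and depth limits the others.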
